A study of Mus musculus with 10 samples.

Results

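Of the 21911 protein-coding genes annotated in the mouse genome (GRCm38, GENCODE M21), 9 genes of Notch signalling and secretory fate were followed through 10 chromatin accessibility libraries. They were the receptors *Notch1* and *Notch2*, the ligands *Dll1*, *Dll4* and *Jag1*, the Notch target *Hes1*, and the transcription factors *Atoh1*, *Gfi1* and *Sox4*. All peaks over each gene body with 20 kb on each side were taken, and peaks of the 10 libraries that shared at least 1 bp were merged into sites. The 9 windows held 57 of the 85680 sites of the genome. Sites carry the gene's name and a number that counts along the chromosome, and distances run from the gene's start in the direction of transcription.

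The libraries came from mouse colon organoids, which are epithelial cultures grown from crypts, of wild type (WT) or aryl hydrocarbon receptor knockout (AHR KO) origin. In the study, organoids that lack AHR carried floxed *Ahr* and a Cre driven by the *Villin* promoter, which is active in intestinal epithelium. WENR medium contains Wnt3a and keeps the cultures in a proliferative, stem-like state. The d4 ENR organoids had been moved for 4 days to ENR medium without Wnt3a, in which they differentiate. Per the study's methods, WENR was ENR with Wnt3a and also SB202190, an ALK5 inhibitor and nicotinamide. The media therefore differ in more than Wnt3a, and the effects of these additions cannot be told apart. There were 2 WT and 3 AHR KO libraries in WENR and 3 WT and 2 AHR KO libraries in d4 ENR, each made by Omni-ATAC-seq, in which a transposase tags open chromatin, from live sorted cells. The labels do not say whether libraries of a group came from different mice, so the p-values measure the spread between these libraries, which may be technical. In cell populations, fewer cells with an open site and less opening per cell cannot be told apart.

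Notch signalling sorts intestinal progenitors into absorptive and secretory cells. A cell that presents the ligands Dll1, Dll4 or Jag1 activates the receptors Notch1 and Notch2 on its neighbours, whose cleaved intracellular domain joins the DNA-binding protein RBPJ and switches on *Hes1*. HES1 is a repressor that holds back *Atoh1*, the basic helix-loop-helix factor that commits cells to the goblet, enteroendocrine and other secretory lineages. *Gfi1* acts downstream of *Atoh1* in secretory progenitors, and *Sox4* is a SOX factor used by progenitors, including those of tuft and enteroendocrine cells.

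Between 30354729 and 49126792 fragments lay behind each list of 33433 to 65308 peaks. Peaks took in 63.0 to 68.6% of the coverage in the WENR libraries, 14.1 to 30.9% in WT d4 ENR and 33.8 and 44.2% in AHR KO d4 ENR, so the libraries of the media and, in d4 ENR, of the genotypes differed in the share of signal in peaks. WT d4 ENR replicate 1 had the shortest list and the lowest share. Of 8 markers of colon epithelium, 7 had a peak at their start in all 10 libraries and *Krt20*, a gene of mature surface cells, had one in 1. Of 4 immune markers, 3 had a peak in none and *Cd68* in 9, of 3 endothelial markers 2 had none and *Kdr* 5, and of 4 fibroblast markers *Col1a2* and *Dcn* had none while *Col1a1* and *Pdgfra* had a peak in all 10.

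The sequences on which the results turn are the *Atoh1* promoter and 5 distal sites of *Atoh1*, *Dll4*, *Notch2* and *Dll1*, chosen because they gained, lost or changed peaks between the groups. The *Atoh1* promoter is the 250 bases before the start in RefSeq (GRCm38.p6, chr6:64728875-64729124, + strand). Each distal window is 200 bases of GRCm38, + strand, centred on the bases shared by the peaks of that site: chr6:64736414-64736613 for Atoh1_3, chr6:64743107-64743306 for Atoh1_4, chr2:119318466-119318665 for Dll4_2, chr3:98080352-98080551 for Notch2_10 and chr17:15365768-15365967 for Dll1_2. Capitals mark every match, on either strand, to GTGGGAA for RBPJ, CACNAG for the N-box bound by HES factors, CAGCTG for an E-box, GCGTG for the AHR:ARNT core, CATTCC for TEAD or CTTTGA for TCF/LEF, and no match overlapped another.
Atoh1 promoter: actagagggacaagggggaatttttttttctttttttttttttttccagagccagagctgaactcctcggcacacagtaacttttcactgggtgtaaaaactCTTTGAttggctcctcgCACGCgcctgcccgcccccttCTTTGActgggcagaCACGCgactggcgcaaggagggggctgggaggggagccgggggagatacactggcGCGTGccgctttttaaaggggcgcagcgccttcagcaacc
Atoh1_3: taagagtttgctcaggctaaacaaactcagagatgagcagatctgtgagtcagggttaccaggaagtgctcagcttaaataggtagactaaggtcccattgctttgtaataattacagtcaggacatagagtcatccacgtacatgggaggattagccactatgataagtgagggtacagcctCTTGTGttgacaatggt
Atoh1_4: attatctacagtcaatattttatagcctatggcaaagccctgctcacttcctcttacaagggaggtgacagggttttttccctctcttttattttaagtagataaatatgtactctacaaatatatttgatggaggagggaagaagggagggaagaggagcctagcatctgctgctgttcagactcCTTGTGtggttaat
Dll4_2: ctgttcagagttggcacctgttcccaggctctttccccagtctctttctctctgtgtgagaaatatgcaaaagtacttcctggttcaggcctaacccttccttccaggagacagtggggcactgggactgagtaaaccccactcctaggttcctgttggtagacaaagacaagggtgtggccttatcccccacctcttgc
Notch2_10: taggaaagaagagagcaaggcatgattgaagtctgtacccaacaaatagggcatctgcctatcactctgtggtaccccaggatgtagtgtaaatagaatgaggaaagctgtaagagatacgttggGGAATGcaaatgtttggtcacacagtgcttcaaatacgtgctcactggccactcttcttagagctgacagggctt
Dll1_2: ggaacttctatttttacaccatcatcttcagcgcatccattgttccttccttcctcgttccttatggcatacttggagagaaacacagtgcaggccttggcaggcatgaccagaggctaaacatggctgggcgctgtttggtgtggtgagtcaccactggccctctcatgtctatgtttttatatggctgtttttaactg

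The *Atoh1* promoter held 3 GCGTG and 2 CTTTGA strings, which occurred at least once in 28.2 and 13.8% of the 32851 promoter windows of this length. Atoh1_3 and Atoh1_4 held 1 N-box each, a string found in 34.1% of the 200-base windows at the centres of all 85680 sites. Notch2_10 held 1 CATTCC, found in 12.5% of those windows, and the windows of Dll4_2 and Dll1_2 held none of the 6 strings. GTGGGAA, found in 4.31% of site windows and 5.42% of promoters, was in none of the sequences shown. Of the 9 genes, 8 had a promoter sequence, and GCGTG was in that of *Notch2*, *Dll1*, *Dll4*, *Jag1*, *Atoh1* and *Sox4*. A match is a string in the sequence and says nothing about binding.

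The first comparison asked how the open chromatin of these genes differed between WENR and d4 ENR. Measured as bases under peaks in the window of a gene, *Notch2*, *Jag1*, *Hes1* and *Gfi1* had less open chromatin in every d4 ENR than in every WENR library of the same genotype. That is 4 of the 9 genes, against 59.3% of the 18452 genes that any library covered. Within WT it was 7 of 9 genes, against 84.5% of all genes, and within AHR KO 4 of 9, against 62.3%. None of the 9 gained bases in both genotypes. Averaged over genotypes, the mean differences of *Atoh1* and *Sox4* were 5.67 and 68.0 bases. The *Atoh1* mean fell in WT and rose in AHR KO. The tests were exact permutation tests with libraries exchanged between media within each genotype (100 arrangements, 2-sided, smallest p 0.02), and p-values were adjusted over all 18452 genes.

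**Figure D1:**
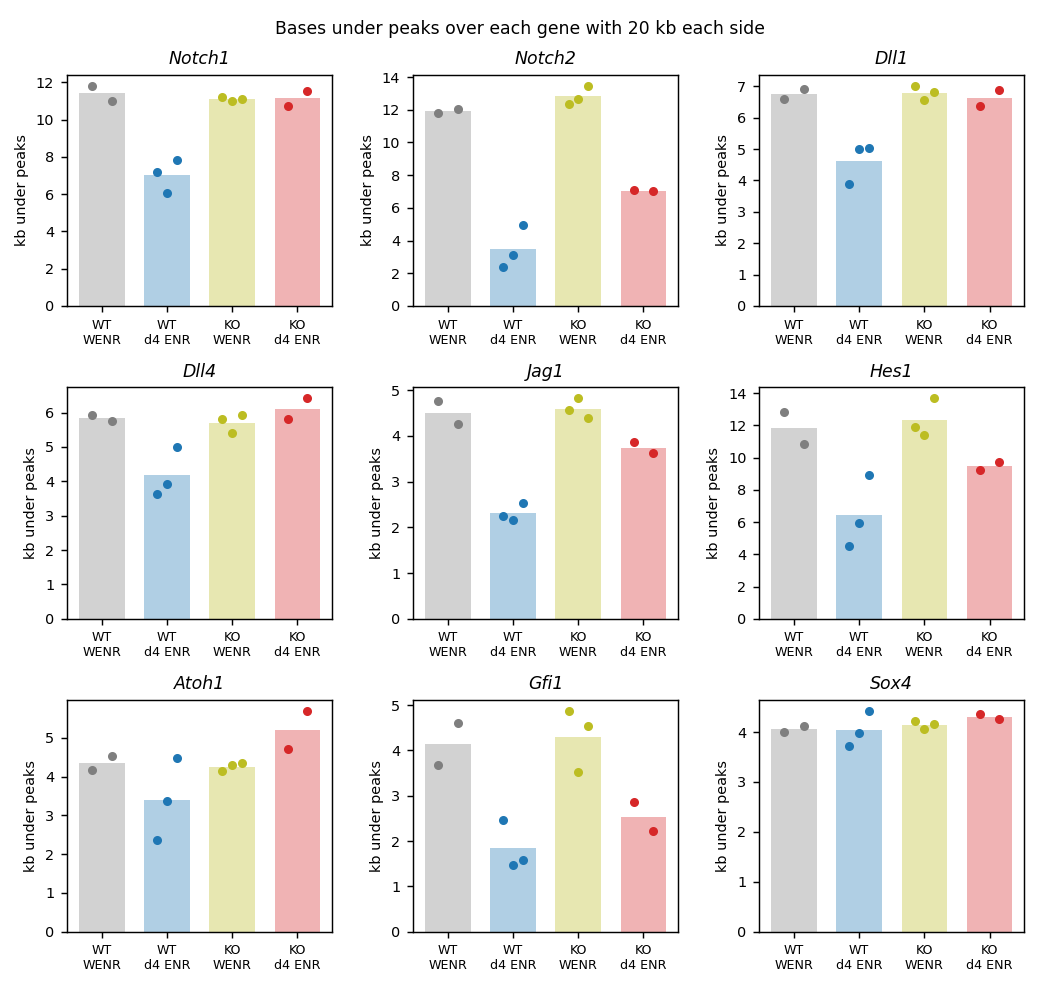
Bases under peaks (kb, linear axis from 0) in the window of each of the 9 genes, by group; bars are group means and points are libraries. The *Notch2* bar falls most between WENR and d4 ENR, the bars of *Sox4* are level, and in d4 ENR the AHR KO points lie above the WT points for every gene except *Gfi1* and *Sox4*.

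Among the receptors, *Notch2* (chr3:98013527-98150361) lost the most. Its window had 11818 and 12027 covered bases in WT WENR and 2374, 3107 and 4939 in WT d4 ENR, and 12342, 12664 and 13479 in AHR KO WENR and 7098 and 7019 in AHR KO d4 ENR. The media did not overlap in either genotype, and the mean difference was -7110 bases (exact permutation p = 0.02, adjusted p = 0.0335). WT d4 ENR kept 29.1% of the WENR mean and AHR KO d4 ENR 55.0%; among genes with a mean of at least 500 bases in WENR, 9.63% of 17192 kept a smaller share in WT and 14.1% of 17290 in AHR KO. *Notch1* (chr2:26457903-26516663) had 11823 and 11005 bases in WT WENR, 7174, 6083 and 7843 in WT d4 ENR, 11222, 11019 and 11088 in AHR KO WENR, and 10748 and 11522 in AHR KO d4 ENR. For *Notch1* the media were apart in WT and overlapped in AHR KO, and the averaged difference of -2178 bases did not pass (exact permutation p = 0.12, adjusted p = 0.148). Its window also holds *Sec16a*, a gene of endoplasmic reticulum exit sites.

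Among the ligands *Jag1* passed the test and *Dll1* and *Dll4* did not, and the difference between the genes was not tested. *Jag1* (chr2:137081456-137116644) had 4756 and 4265 covered bases in WT WENR, 2239, 2158 and 2526 in WT d4 ENR, 4556, 4819 and 4393 in AHR KO WENR, and 3864 and 3623 in AHR KO d4 ENR. Its d4 ENR libraries lay below its WENR libraries in both genotypes, with a mean difference of -1524 bases (exact permutation p = 0.02, adjusted p = 0.0335). *Dll1* (chr17:15367354-15376872) had 6604 and 6902 bases in WT WENR, 3895, 4988 and 5018 in WT d4 ENR, 7023, 6575 and 6804 in AHR KO WENR, and 6365 and 6884 in AHR KO d4 ENR. *Dll4* (chr2:119325784-119335962) had 5922 and 5762, then 3623, 3931 and 4994, in WT, and 5801, 5406 and 5916, then 5804 and 6412, in AHR KO. In both *Dll1* and *Dll4* the media were apart in WT and overlapped in AHR KO, and neither averaged difference passed (exact permutation p = 0.06, adjusted p = 0.0816 for *Dll1* and p = 0.28, adjusted p = 0.318 for *Dll4*).

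*Hes1* (chr16:30064384-30067796), the repressor downstream of Notch, had 12797 and 10852 covered bases in WT WENR, 4538, 5933 and 8914 in WT d4 ENR, 11891, 11413 and 13664 in AHR KO WENR, and 9196 and 9724 in AHR KO d4 ENR. All d4 ENR libraries lay below the WENR libraries of their genotype, with a mean difference of -4113 bases (exact permutation p = 0.02, adjusted p = 0.0335). Over the gene body alone the *Hes1* difference was -915 bases and did not pass (exact permutation p = 0.06). *Gfi1* (chr5:107716657-107726036) had 3670 and 4598 bases in WT WENR, 2463, 1473 and 1587 in WT d4 ENR, 4863, 3524 and 4529 in AHR KO WENR, and 2864 and 2213 in AHR KO d4 ENR. Its groups were likewise apart, by -2030 bases (exact permutation p = 0.02, adjusted p = 0.0335). With lists of equal length the *Gfi1* difference turned to 286.1 bases (exact permutation p = 0.72).

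*Atoh1* (chr6:64729125-64731245) and *Sox4* (chr13:28948919-28953713) did not follow this order. Their differences were small when averaged over genotypes, and the sign of these averages turned with other windows. *Atoh1* had 4161 and 4529 covered bases in WT WENR, 2364, 3372 and 4486 in WT d4 ENR, 4139, 4291 and 4347 in AHR KO WENR, and 4727 and 5689 in AHR KO d4 ENR. Both AHR KO d4 ENR libraries lay above all AHR KO WENR libraries, the WT groups overlapped, and the averaged difference was 5.67 bases (exact permutation p = 1.0). This average joins opposite changes, as the *Atoh1* mean in d4 ENR was 78.4% of that in WENR in WT and 122% in AHR KO. *Sox4* had 4000 and 4129 bases in WT WENR, 3729, 3980 and 4415 in WT d4 ENR, 4220, 4060 and 4165 in AHR KO WENR, and 4361 and 4254 in AHR KO d4 ENR, and its WT groups overlapped too (difference 68.0 bases, exact permutation p = 0.66). In AHR KO, 97.0% of 17290 genes kept a smaller share of their WENR bases than *Atoh1* and 90.8% a smaller share than *Sox4*. In WT it was 86.6 and 98.4% of 17192 genes, in that order.

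Because the lists themselves shrank in d4 ENR, from 61.8 to 67.2 Mb under peaks in WENR to 26.2 to 50.1 Mb, the bases were also taken per Mb under all peaks of a library. On this scale only *Notch2* had less in every d4 ENR library of both genotypes, 1 of 9 genes against 12.5% of all genes. It fell from 191 ± 0.283 (SD, n = 2) to 103 ± 15.8 bases per Mb (n = 3) in WT and from 200 ± 1.23 (n = 3) to 146 ± 8.71 (n = 2) in AHR KO. *Dll1*, *Dll4*, *Atoh1* and *Sox4* had more in every d4 ENR library, 4 of 9 against 25.7%. *Atoh1* went from 69.7 ± 3.41 to 102 ± 10.2 bases per Mb in WT and from 66.6 ± 1.81 to 108 ± 8.52 in AHR KO, while *Hes1* had 190 ± 24.1 and 192 ± 23.1 in WT and 192 ± 10.8 and 196 ± 2.39 in AHR KO. *Jag1*, *Hes1* and *Gfi1*, which passed by bases, differed by 2.44, 2.84 and -10.6 bases per Mb (exact permutation p = 0.68, 0.74 and 0.44). For the 5 separated genes, *Notch2* and the 4 with more, the exact permutation p was 0.02, the smallest possible, and the adjusted p was 0.0524. As the smallest possible p stayed above the threshold of 0.05 after adjustment, none of the 18452 genes could pass on this scale.

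Single sites showed where the bases went. Of the 57 sites, 29 (50.9%) were called in all 10 libraries, as were 32.9% of all sites in the genome. With lists of equal length it was 20 of 44 sites (45.5%), against 44.6% of all sites. All 9 sites over the genes' own starts were among the 29, and 20 of the other 48. The same share for the start sites of all genes was not counted. A library called between 33 and 47 of the 57 sites. A site without a peak did not pass the authors' threshold in that library, which does not show that it was closed.

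**Figure D2:**
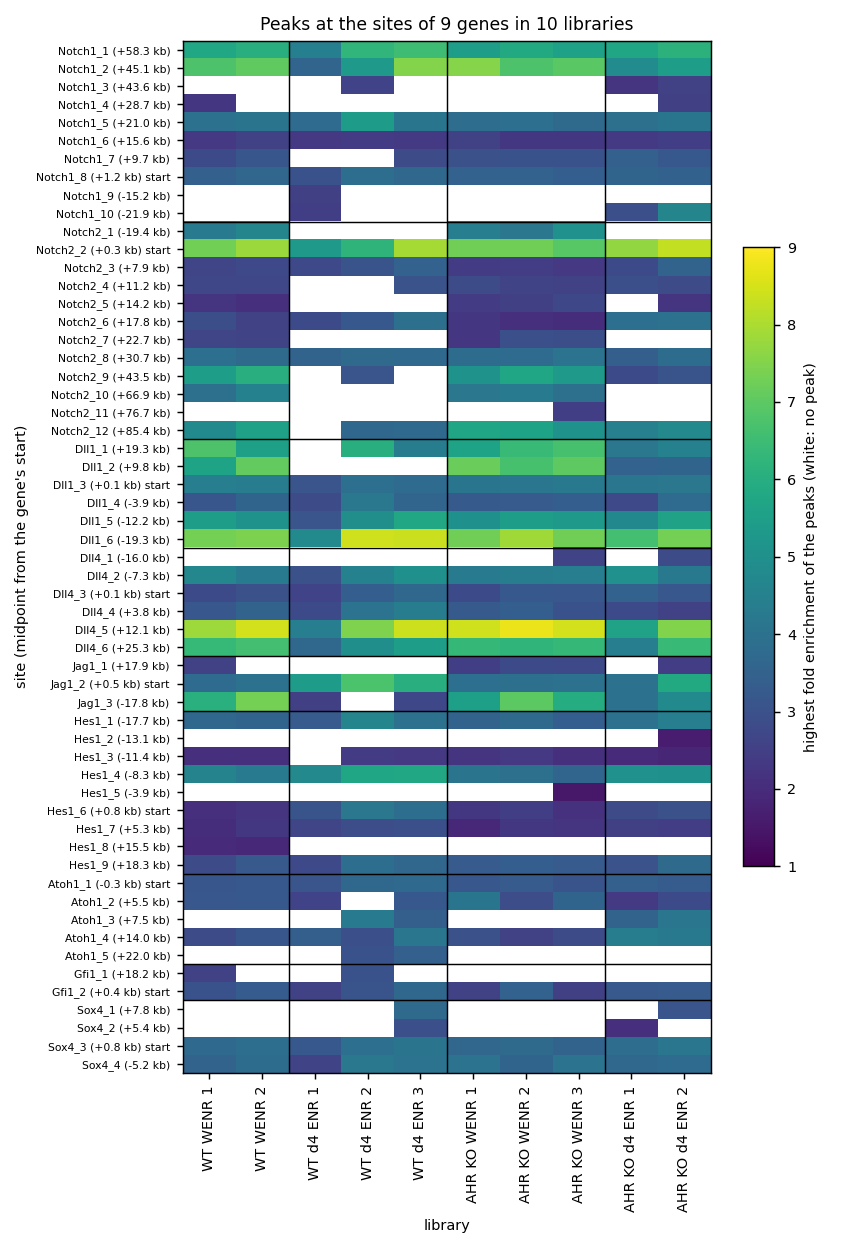
Highest fold enrichment of the peaks at each of the 57 sites (rows, with the distance of the midpoint from the gene's start in kb) in the 10 libraries (columns); white marks the lack of a peak. All 9 start sites are filled in all columns, and Notch2_1, Notch2_7 and Notch2_10 are white in all 5 d4 ENR columns.

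The start of *Notch2* kept its peak in all libraries while sites around it lost theirs. Notch2_2, over the start, had a fold enrichment over local background of 7.31 and 7.80 in WT WENR, 5.29, 6.21 and 7.91 in WT d4 ENR, 7.27, 7.28 and 6.91 in AHR KO WENR, and 7.70 and 8.25 in AHR KO d4 ENR. The media overlapped in WT, and in AHR KO both d4 ENR values lay above the WENR values. In the same window 3 sites were called in all 5 WENR and none of the 5 d4 ENR libraries: Notch2_1 (chr3:97993759-97994561, 19.4 kb upstream), Notch2_7 (chr3:98035701-98036703, in an intron) and Notch2_10 (chr3:98079785-98081063, in an intron, 66.9 kb from the start). They are 5.26% of the 57 sites, near the 5.46% of all sites with this pattern. Notch2_10, whose sequence is given above, had fold enrichments of 3.94 and 4.53 in WT WENR and 4.17, 4.29 and 3.94 in AHR KO WENR. Notch2_5, in an intron, was lost in WT alone, with a peak in AHR KO d4 ENR replicate 2. Notch2_12, an intronic site and the strongest distal one of this gene, was called in 9 libraries and narrowed from 924 and 1151 bases in WT WENR to 0, 235 and 283 in WT d4 ENR, against 967, 1049 and 1033, then 851 and 1000, in AHR KO.

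*Atoh1*, like *Notch1*, *Hes1* and *Sox4*, had sites with peaks in d4 ENR libraries alone. Atoh1_3 (chr6:64736263-64736890, 7.5 kb from the start and past the gene's end) had no peak in any of the 5 WENR libraries. In d4 ENR its fold enrichment was 4.32 and 3.43 in WT replicates 2 and 3 and 3.54 and 4.14 in AHR KO, with no peak in WT replicate 1, the library with the shortest list. None of the 57 sites was called in all d4 ENR and no WENR library, against 0.317% of all sites, and with that library left out Atoh1_3 was the 1 member site with this pattern, against 1.08% of all sites. It was 1 of 3 sites called in all AHR KO d4 ENR and no AHR KO WENR library, with Notch1_3 (43.6 kb from the start, in an exon) and Notch1_10 (21.9 kb upstream), which is 5.26% of the 57 sites and 2.86% of all sites. Both *Notch1* sites had no peak in WENR and were each also called in 1 WT d4 ENR library. Atoh1_5, 22.0 kb from the start, was called only in WT d4 ENR replicates 2 and 3.

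For the 29 sites called in all libraries, the coverage of a site, its pileup times its length, was compared with limma on a log2 scale after the median of the 28205 sites called in all libraries had been set to 0. Differences are therefore relative to these shared sites. In d4 ENR, 10 of the 29 sites were higher than in WENR, against 23.0% of the 28205, and 7 were lower, against 15.9%. The higher sites belonged to *Notch1* (2), *Dll1* (2), *Dll4* (3), *Atoh1* (2) and *Sox4* (1), and the lower sites to *Notch1* (1), *Notch2* (2), *Dll4* (1) and *Hes1* (3). Some of these sites lie over the start of a neighbouring gene: of the higher sites Notch1_1 over those of *Sec16a* and *0610009E02Rik* and Dll1_6 over that of *Fam120b*, and of the lower sites Dll4_6 over that of *Chac1*. Scaled by fragments in place of the shared sites, the median of all 28205 sites lay at -1.08, 22 of the 29 sites were lower and 1 was higher, and 8 of the 10 higher sites turned negative. Scaling by fragments moves every site down by the same amount, so smaller rises had to turn and the 7 lower sites could not. These 7 sites also stayed lower by mean pileup and by quantile normalization. By fold enrichment, 6 of these 7 turned positive, so their pileup and coverage were lower relative to shared sites while their ratio to local background was not. The count of higher sites was 6 without WT WENR replicate 1 or without AHR KO d4 ENR replicate 2, and that of lower sites was 4 without WT WENR replicate 2.

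**Figure D3:**
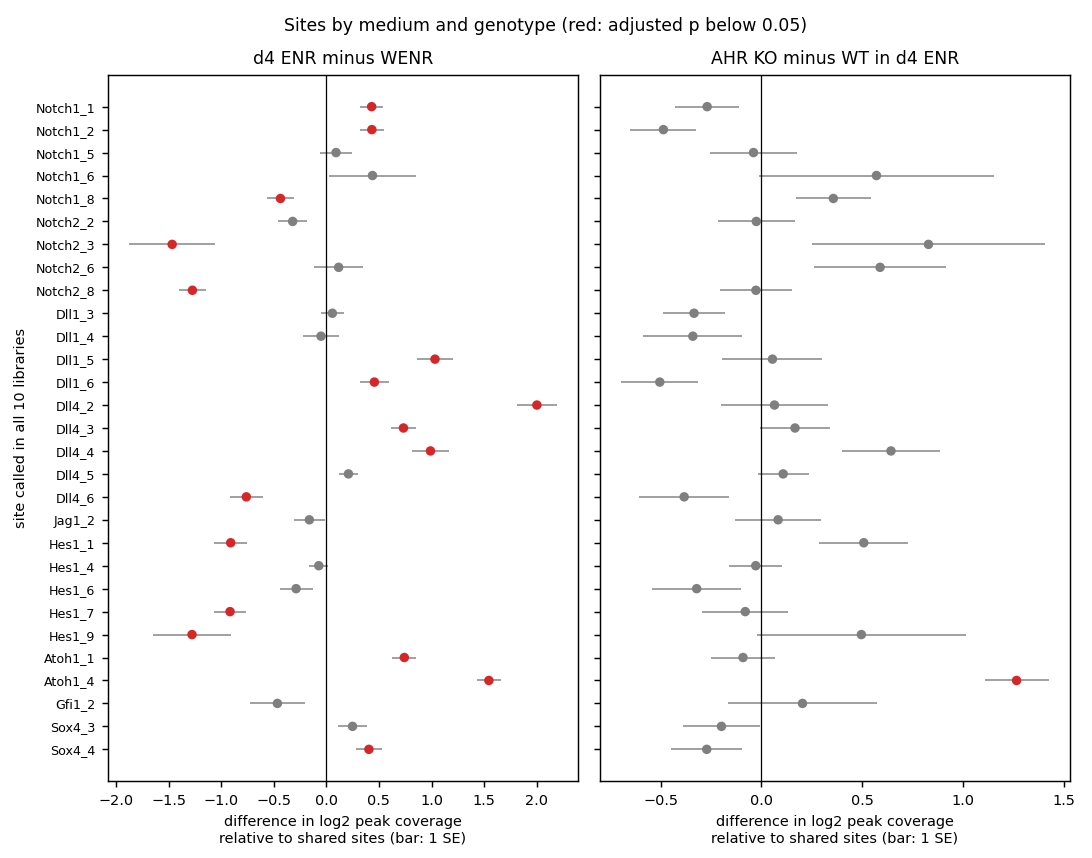
Difference in log2 peak coverage relative to shared sites at the 29 sites called in all libraries, for d4 ENR minus WENR averaged over genotypes (left) and AHR KO minus WT in d4 ENR (right); points are limma estimates, bars are 1 SE and red marks an adjusted p under 0.05. Dll4_2 at 2.00 and Atoh1_4 at 1.55 lie farthest to the right on the left side, and Atoh1_4 at 1.27 is the only red point on the right side.

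Dll4_2 (chr2:119317960-119319008, 7.3 kb upstream of *Dll4*) had the largest rise relative to shared sites, 2.00 ± 0.188 (SE) on the log2 scale (adjusted p = 9.61e-05). Its centred log2 coverage was -2.49 and -2.86 in WT WENR, -1.11, -1.10 and -0.49 in WT d4 ENR, -2.96, -3.14 and -3.11 in AHR KO WENR, and -0.46 and -1.21 in AHR KO d4 ENR. It was also the 1 site that was higher when scaled by fragments, by 0.82 (adjusted p = 0.0341), and by fold enrichment it differed by 0.07 (adjusted p = 0.528). The start site of *Dll4*, Dll4_3, which is also the start of the lncRNA gene *Gm14207*, was higher by 0.73 ± 0.122 (adjusted p = 0.00163) and negative by fragments, at -0.45. Dll1_5, 12.2 kb upstream of *Dll1*, was higher by 1.03 ± 0.175 (adjusted p = 0.00183), and was negative by fragments at -0.15 and by fold enrichment at -0.03. The strongest sites away from the starts of these ligand genes were called in all libraries. Dll4_5, 12.1 kb from the start of *Dll4*, had fold enrichments of 4.41 to 8.78. Dll1_6, 19.3 kb upstream of *Dll1*, covers the start of the neighbouring gene *Fam120b* and had 4.80 to 8.41.

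Atoh1_4 (chr6:64742179-64744153, 14.0 kb from the start) followed with 1.55 ± 0.113 (adjusted p = 3.67e-05). Its centred log2 coverage was -3.02 and -2.77 in WT WENR, -2.25, -1.88 and -1.94 in WT d4 ENR, -2.91, -3.05 and -2.98 in AHR KO WENR, and -0.70 and -0.81 in AHR KO d4 ENR, so the media were apart in both genotypes. The difference was 0.36 by fragments (adjusted p = 0.27) and 0.52 by fold enrichment (adjusted p = 0.00307). The start site Atoh1_1 was higher by 0.74 ± 0.113 (adjusted p = 0.00104), higher by fold enrichment by 0.22 (adjusted p = 0.0245), and negative by fragments at -0.44.

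Among lower sites, Notch2_3 (7.9 kb inside *Notch2*, in an intron) fell by 1.47 on the log2 scale (SE 0.408, adjusted p = 0.0201), a call lost without WT WENR replicate 2 (adjusted p = 0.0752) or AHR KO d4 ENR replicate 2 (adjusted p = 0.0797). It narrowed from 1642 and 1788 bases in WT WENR to 269, 329 and 1365 in WT d4 ENR, and from 1703, 1748 and 1814 to 1623 and 632 in AHR KO. By fold enrichment it was higher, by 0.39 (adjusted p = 0.000941). Notch2_8, 30.7 kb inside the gene in an intron, fell by 1.28 (SE 0.127, adjusted p = 0.000125). Its pileup, scaled to 10000000 fragments, was 23.0 and 23.6 in WT WENR, 4.56, 4.55 and 5.26 in WT d4 ENR, 25.7, 29.0 and 36.8 in AHR KO WENR, and 7.05 and 7.72 in AHR KO d4 ENR, with no overlap between media. On this scale d4 ENR also lay below WENR at Notch1_1 and Sox4_4, which were higher relative to shared sites, though not at Dll4_2 or Atoh1_4. The gap per fragment is therefore not particular to Notch2_8.

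Relative to shared sites, coverage fell at sites on both sides of the *Hes1* start, and the difference at the start did not pass. The start and these sites kept a peak in every library. The start site spanned 3572 and 3575 bases in WT WENR and 1994, 1722 and 2566 in WT d4 ENR. In AHR KO it spanned 2996, 2567 and 3964, then 2645 and 2481, and the media overlapped. Hes1_9, 18.3 kb from the start and past the gene's end, fell by 1.28 (SE 0.367, adjusted p = 0.0228) and Hes1_7 and Hes1_1 by 0.92 and 0.91. Hes1_9 spanned 2383 and 2226 bases in WT WENR, 264, 976 and 1732 in WT d4 ENR, 2263, 2210 and 2374 in AHR KO WENR, and 1873 and 1923 in AHR KO d4 ENR. The call at Hes1_9 was lost without either WT WENR library (adjusted p = 0.0667 and 0.0676) or AHR KO d4 ENR replicate 1 (adjusted p = 0.0777). By fold enrichment relative to shared sites the fitted differences were positive, 0.20 at Hes1_9 (adjusted p = 0.0207), 0.40 at Hes1_7 (adjusted p = 0.00462) and 0.28 at Hes1_1 (adjusted p = 0.00504). The fold enrichments as deposited overlapped between media in both genotypes at Hes1_9 and in WT at Hes1_1, and were apart in both genotypes at Hes1_7. Hes1_6, over the start, differed by -0.29 in coverage (adjusted p = 0.171) and was higher by fold enrichment, by 0.66 (adjusted p = 2.38e-05). Its fold enrichment was 2.10 and 2.24 in WT WENR, 3.09, 4.18 and 3.89 in WT d4 ENR, 2.30, 2.49 and 2.13 in AHR KO WENR, and 2.85 and 2.97 in AHR KO d4 ENR, apart between media. Hes1_4, 8.3 kb upstream and the strongest distal site of the gene, differed by -0.07 in coverage (adjusted p = 0.55).

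**Figure D4:**
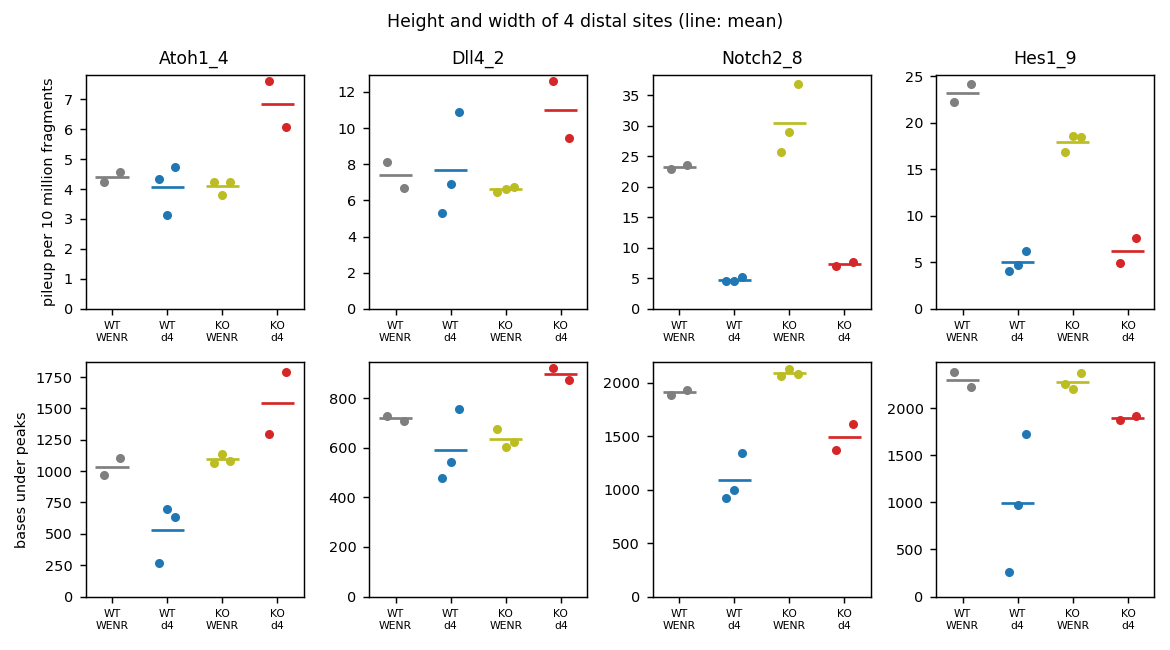
Pileup scaled to 10000000 fragments (top, averaged over the peaks of a site) and bases under peaks (bottom) at 4 distal sites; points are libraries, lines are group means and axes start at 0. Notch2_8 and Hes1_9 are lower in all d4 ENR libraries, while Atoh1_4 is highest in both measures in the 2 AHR KO d4 ENR libraries. The pileup is not relative to shared sites, so it also holds differences common to whole libraries.

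At the other starts, coverage relative to shared sites fell by 0.44 at Notch1_8 (SE 0.131, adjusted p = 0.0271) and did not pass at Notch2_2 (-0.32), Jag1_2 (-0.16), Gfi1_2 (-0.47), Dll1_3 (0.06) and Sox4_3 (0.25). The call at Notch1_8 was lost without WT WENR replicate 1 or 2, AHR KO WENR replicate 1 or 3 or AHR KO d4 ENR replicate 2 (adjusted p = 0.052 to 0.107). By fold enrichment Notch1_8 was at 0.11 and Jag1_2 was higher, by 0.57 (adjusted p = 0.000346). Gfi1_2, which also covers the start of *A430072P03Rik*, shrank from 3357 and 4598 bases in WT WENR to 2463, 1129 and 1587 in WT d4 ENR, and from 4863, 3524 and 4529 to 2864 and 2213 in AHR KO, and it makes up most of the bases of *Gfi1*. The strongest distal sites of the remaining genes were Notch1_2, in an exon 45.1 kb from the start, called in all 10 libraries, Jag1_3, 17.8 kb upstream, called in 9, Sox4_4, 5.2 kb upstream, called in all 10, and Gfi1_1, 18.2 kb from the start, called in 2. Sox4_4 spanned 1987 to 2063 bases in all 10 libraries.

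The second comparison asked whether AHR KO organoids differed from WT in d4 ENR. In both AHR KO libraries *Notch1*, *Notch2*, *Dll1*, *Dll4*, *Jag1*, *Hes1* and *Atoh1* had more covered bases than in all 3 WT libraries, by 1436 (*Jag1*) to 4102 bases (*Notch1*). That is 7 of the 9 genes against 59.5% of all genes, and with 2 libraries against 3 the exact permutation p cannot go below 0.2, which is the value for these 7. *Gfi1* (697.5 bases more) and *Sox4* (266 bases more) overlapped. AHR KO d4 ENR libraries also had a larger share of coverage in peaks and more Mb under peaks than WT d4 ENR libraries. Per Mb under all peaks, *Notch2* had more in both AHR KO libraries, 146 ± 8.71 against 103 ± 15.8, which is 1 of 9 genes against 10.7% of all genes. *Sox4* had less on this scale, 89.3 ± 6.18 against 125 ± 17.2, which is 1 of 9 against 22.1%, and the other 7 overlapped.

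Whether the change between media differed between the genotypes was tested as an interaction. WT d4 ENR kept 61.6% of the WENR bases of *Notch1* and AHR KO 100%, for *Dll1* 68.6 and 97.4%, for *Dll4* 71.6 and 107%, and for *Atoh1* 78.4 and 122%. The exact permutation p of the interaction ranged from 0.06 for *Atoh1* to 0.60 for *Sox4* over the 9 genes. After adjustment over 18452 genes none of the 9 passed (adjusted p of 0.367 for *Atoh1*). No other gene passed either, since even the smallest possible permutation p, 0.02, had an adjusted p of 0.317. The test therefore could not decide the question. Its arrangements also exchanged genotypes within each medium, which assumes no genotype effect in either medium.

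Atoh1_4 was the only 1 of the 29 sites with a genotype difference in coverage in d4 ENR. It was higher in AHR KO by 1.27 ± 0.159 on the log2 scale (adjusted p = 0.0244), against 0.514% of all shared sites, and no member site was lower, against 0.131%. The site was wider in AHR KO, with 1293 and 1792 bases against 268, 698 and 637 in WT, and the WENR libraries lay between, at 967 to 1134 bases. Its mean pileup relative to shared sites differed by 0.02 (adjusted p = 0.98) and its fold enrichment by 0.19 (adjusted p = 0.49). Relative to shared sites, the difference therefore lay in the width of the peak. Scaled to 10000000 fragments, the height of the peak differed too. Both AHR KO d4 ENR libraries (pileup 7.6, 6.08) then exceeded every WT d4 ENR library (4.34, 3.12, 4.73). On this scale the same order held at sites such as Notch1_1 and Hes1_4, and did not hold at others such as Dll1_4 and Hes1_9. The height difference is therefore not particular to Atoh1_4. The call held without any 1 of the WT d4 ENR libraries or AHR KO d4 ENR replicate 2, and was lost without AHR KO d4 ENR replicate 1 (1.21, adjusted p = 0.195) or any 1 of the 5 WENR libraries (adjusted p = 0.053 to 0.0688). Scaled by fragments the difference was 2.12 (limma, adjusted p = 0.0346). The median difference of all shared sites on that scale was 0.8, so part of the 2.12 is a shift common to the libraries. The interaction at this site was 1.35 ± 0.225 (adjusted p = 0.193).

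By presence, Dll1_2 (chr17:15365574-15366395, 9.8 kb from the start and past the gene's end) was the 1 site called in both AHR KO and no WT d4 ENR library, a pattern of 2.84% of all sites. Its fold enrichment was 5.65 and 7.08 in WT WENR, 7.16, 6.68 and 7.03 in AHR KO WENR, and 3.52 and 3.57 in AHR KO d4 ENR, with no peak in WT d4 ENR. Without AHR KO d4 ENR replicate 1 the count of such sites was 6, against 8.58% of all sites, and without any 1 of the WT d4 ENR libraries it was 2 or 3, against 3.07 to 6.91%. No site was called in all WT and no AHR KO d4 ENR library.

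In WENR few of the measures set the genotypes apart. *Notch2* alone of the 9 genes had more covered bases in all AHR KO than in both WT libraries, by 906 bases, against 12.5% of all genes (exact permutation p = 0.2, the smallest possible). The count of genes was 4 without WT WENR replicate 1 and 2 without WT WENR replicate 2 or AHR KO WENR replicate 2. In limma 0 of the 29 sites were higher and 0 lower in AHR KO, against 0.00355 and 0.0106% of all shared sites past the threshold. At an unadjusted p under 0.05, 2 of the 29 were higher and 1 lower, and the share of all sites at that limit was not counted. Hes1_8, 15.5 kb from the *Hes1* start and past its end, was called in both WT and no AHR KO WENR library, with fold enrichments of 1.95 and 1.90, and had no peak in d4 ENR. It was the 1 member site with this pattern in WENR (1.75%), against 0.759% of all sites. With lists shortened to equal length no member site had it, and without WT WENR replicate 2 there were 3, against 2.21% of all sites. The limma interaction between genotype and medium passed at 0 of the 29 sites and at 0 of all 28205 shared sites. At an unadjusted p under 0.05, 2 of the 29 were positive and 0 negative, with no share of all sites counted.

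The rest of the pathway was counted in the same way. Of 35 further Notch pathway genes, 26 (74.3%, against 59.3% of all genes) had less open chromatin in every d4 ENR library of both genotypes, 0 had more (0.358% of all genes), and 27 had more in AHR KO than in WT in d4 ENR (77.1%, against 59.5%). Their median share of WENR bases kept was 55.9% in WT and 78.4% in AHR KO, beside 58.0 and 79.9% over all genes and 61.6 and 97.4% over the 9 genes. The largest losses in bases were at *Maml3*, *Maml2* and *Pofut1*, with -10918, -7404 and -4571 bases (exact permutation p = 0.02 each). The first 2 encode coactivators of the Notch complex and the last an enzyme that fucosylates Notch. As shares of their WENR bases they kept 53.7, 32.6 and 43.5% in WT and 80.9, 64.5 and 74.8% in AHR KO, so *Maml3* lay near the medians of all genes. *Olfm4*, a Notch target and stem cell gene, had 458.5 bases in WT WENR and 573 in AHR KO WENR, and no peak in any d4 ENR library. Of 14 secretory lineage genes, 9 (64.3%, against the same 59.3%) had less and 0 more in d4 ENR. The largest losses in bases were at *Creb3l1* (-3718), *Klf4* (-2795) and *Pou2f3* (-2335), a secretory pathway factor, a goblet cell factor and the tuft cell regulator. They kept 59.1, 55.6 and 43.1% of their WENR bases in WT and 77.9, 76.2 and 71.4% in AHR KO. In d4 ENR 4 of the 14 (28.6%, against 59.5% of all genes) had more in both AHR KO than in the 3 WT libraries. These lists have no test of their own.

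Across the 10 libraries, the covered bases of *Hes1* ran most like those of *Pi4k2a* (Pearson r = 0.992), *Mllt10* and *Spred2* (0.989 each) among 16967 genes with at least 500 covered bases on average, those on its own chromosome left aside. *Atoh1* ran most like *Tmem101* (0.986), *Rxra* (0.973) and *Nags* (0.968). These correlations describe libraries that share medium, genotype and list length, and carry no p-value.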

How the data were processed

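Peak lists of 10 Omni-ATAC-seq libraries were analysed. Per the study's methods, the nf-core/atacseq workflow trimmed the reads, mapped them to GRCm38 by BWA and filtered the alignments. Per the file headers, MACS 2.2.7.1 then called broad peaks on the alignments of 1 library at a time, with no control. The deposited columns are the pileup, a coverage signal in fragments that is not scaled for depth, its fold enrichment over local background (a ratio), and the −log10 of p-values and q-values. Deposited read counts were not analysed here, and the study's own count-based test was therefore not run.

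Groups came from the sample labels. The 9 genes, the gene lists, motifs and tests were chosen with earlier results of these data known. Bases under peaks were counted over the gene body (GENCODE M21) with 20 kb each side; peaks sharing 1 bp formed sites. For each gene an exact permutation test was run, 2-sided, its p being 2 times the smaller tail. Sites called in all libraries were compared with limma 3.58.1 (R 4.3.3), which gave moderated estimates over 4 group means with Benjamini-Hochberg adjustment and a threshold of 0.05. Starts are those of RefSeq (GENCODE for *Hes1*). Genes named are the 9 members, up to 3 list genes per comparison with the largest difference, *Olfm4*, chosen after its values were seen, and the 3 most like *Hes1* and *Atoh1* with at least 500 bases on average. Sites named are those at starts, up to 3 per contrast and direction, those that part groups, the strongest distal site per gene by mean fold enrichment over the libraries that called it, and others chosen after their values were seen. Python 3.11.15, numpy 2.4.6, pandas 2.3.3, pysam 0.24.0 and matplotlib 3.10.9 were used. Scripts were tested on simulated data. Alternatives were equal lists of 33433 peaks, a −log10 q of at least 5, other windows, scales and measures, a replicate block, and each library left out.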

Additional observations from a re-analysis of the deposited data

Results flagged for a closer look

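Dll4_4, an intronic site 3.8 kb inside *Dll4*, had opposite genotype orders in the 2 media: in d4 ENR the AHR KO libraries lay above every WT library, and in WENR they lay below every WT library. Its centred log2 coverage was -0.65 and -0.80 in WT WENR, -0.55, 0.14 and -0.43 in WT d4 ENR, -0.88, -1.13 and -1.51 in AHR KO WENR, and 0.45 and 0.27 in AHR KO d4 ENR. The interaction was 1.09 ± 0.345 (SE) on the log2 scale, and it did not pass in limma (adjusted p = 0.345). By fold enrichment the d4 ENR difference had the other sign, at -0.57 (adjusted p = 0.0106).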

How the results depend on the processing

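Every alternative changed 1 choice, except that comparing pairs of the same number also left out the libraries with no partner. The members with less in d4 ENR were 1 per Mb under all peaks (12.5% of all genes) and the same within 1.5 times otherwise. The members with more in AHR KO in d4 ENR were 4 with gene bodies alone and 1 per Mb (10.7% of all genes). In WENR they were 0 with lists of equal length (9.14% of all genes) and 1 to 4 with single libraries left out. The share of all genes was not counted for gene bodies alone or with libraries left out. Of the d4 ENR minus WENR differences in covered bases, *Gfi1* turned to 286.1 (equal lists), *Sox4* to -143.6 (equal lists and a −log10 q of at least 5) and -169 (gene bodies), and *Atoh1* to -140.5 (q), -166.2 (gene bodies) and -416.8 (5 kb each side). Per Mb, *Notch1* turned to 45.9, *Dll1* to 32.3, *Dll4* to 35.5, *Jag1* to 2.44 and *Hes1* to 2.84 bases per Mb. With single libraries left out, *Atoh1* ranged from -264 to 266.5 and *Sox4* from -25.4 to 146.1 bases. Without a WT WENR or an AHR KO d4 ENR library the smallest p of the medium test is 0.05, and the 4 genes that had passed were at that value. The cause was not tested.

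Sites called in all libraries were 17 with a −log10 q of at least 5 and 15 with 50% of a site covered. Of all sites called under the same settings, 25.6 and 16.3% had this pattern. Sites in all WENR and no d4 ENR library were 5 with the q limit, against 12.1% of all sites. AHR KO-only sites in d4 ENR were 3 with the q limit (4.19% of all sites) and 8 with 50% covered (5.91%). With single libraries left out they were 1 to 6, against 2.87 to 8.58% of all sites. WT-only sites in WENR were 0 with equal lists (1.08% of all sites) and 0 with the q limit (0.91%). With libraries left out they were 1 to 3, against 0.767 to 2.32% of all sites. Sites in all d4 ENR and no WENR library, WT-only sites in d4 ENR and AHR KO-only sites in WENR each ranged from 0 to 1. Their shares of all sites were 0.0489 to 1.87%, 0.0205 to 0.85% and 0.846 to 3.26%, in that order.

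Sites higher in d4 ENR were 1 and lower 22 by fragments, lower sites were 3 by fold enrichment, and leaving out libraries gave 6 to 11 higher and 4 to 10 lower. The shares of all shared sites past the threshold were not counted under these alternatives. Sites higher in AHR KO in d4 ENR were 0 by fold enrichment, by pileup and with equal lists, where Atoh1_4 is not called in all libraries, and 0 to 1 with libraries left out. Sites lower in AHR KO in d4 ENR were 2 by fold enrichment, Dll4_4 and Hes1_6. By fold enrichment, the 6 lower sites that turned were at 0.11 (Notch1_8), 0.39 (Notch2_3), 0.023 (Notch2_8), 0.28 (Hes1_1), 0.40 (Hes1_7) and 0.20 (Hes1_9), and the 2 higher sites at -0.32 (Notch1_2) and -0.031 (Dll1_5). By fragments, the 8 higher sites that turned were at -0.75 (Notch1_1), -0.75 (Notch1_2), -0.15 (Dll1_5), -0.73 (Dll1_6), -0.45 (Dll4_3), -0.19 (Dll4_4), -0.44 (Atoh1_1) and -0.78 (Sox4_4). Start sites that had not passed also turned, by fold enrichment to 0.06 (Notch2_2), -0.047 (Dll1_3), 0.57 (Jag1_2), 0.66 (Hes1_6) and 0.18 (Gfi1_2), by fragments to -1.13 (Dll1_3) and -0.94 (Sox4_3), and by mean pileup to -0.17 (Dll1_3) and 0.22 (Gfi1_2).

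Libraries share replicate numbers between groups, and the deviations of same-numbered libraries from their group means correlated at -0.13 to 0.28. With group means of 2 or 3 libraries, these correlations cannot decide whether the numbers pair the libraries. With a replicate block in limma 9 sites were higher and 7 lower in d4 ENR and 0 higher in AHR KO, and in pairs of the same number 4 members had less in d4 ENR and 9 more in AHR KO in d4 ENR, where without WT d4 ENR replicate 3 alone, the library the pairs leave out there, it was 8. The shares of all sites and genes with these patterns were not counted. In the pairs *Atoh1* differed by -242 and *Sox4* by -21.2 bases between media. Depth limits what an absent peak shows, since WT d4 ENR libraries had the lowest share of coverage in peaks, and groups of 2 or 3 libraries cannot bring a genotype p for a single gene below 0.2.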

Other observations

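Several *Hes1* sites had a high pileup and a low ratio to local background. Hes1_5, 3.9 kb upstream, had a pileup of 67.4 per 10000000 fragments in AHR KO WENR replicate 3, the only library that called it, with a fold enrichment of 1.51. Hes1_3, 11.4 kb upstream, had 53.8 to 66.1 in the 5 WENR libraries with fold enrichments of 2.09 to 2.34. Notch2_10 by comparison had 6.07 to 10.2 with fold enrichments of 3.94 to 4.53.

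At Dll1_1, 19.3 kb from the *Dll1* start, the peak widened in AHR KO while its height fell. It spanned 956, 911 and 889 bases in AHR KO WENR and 1240 and 1499 in AHR KO d4 ENR, with fold enrichments of 5.63, 6.41 and 6.66 against 4.18 and 4.53. In WT d4 ENR it spanned 0, 237 and 376 bases. These values were picked after the data were seen and were not tested.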
